A study of Apostichopus japonicus with 9 samples.

Results

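Fibrinogen-related proteins are secreted or membrane proteins that carry a fibrinogen C-terminal domain, and in the body wall (AJBW) of *Apostichopus japonicus*, a sea cucumber, 187 of the 53665 genes measured were grouped with them by name. The names do not show that each gene codes for this domain, and the 6 genes named as angiopoietin receptors are of another kind, kept because their description holds the word angiopoietin. Members were the 185 genes whose description contains the word fibrinogen, ficolin, tenascin or angiopoietin and whose FPKM (fragments per kilobase of exon, scaled to the reads that mapped in a library) was above 0 in at least 2 libraries. MSTRG.14960 and MSTRG.40915 were added. Both lack a description in the deposited table, and they were traced by their fold changes to a fibrinogen C domain-containing protein 1-like gene and a tenascin-N gene that the study lists. The words occurred in 203 genes, of which 18 were left out by the level rule. The RNA came from 9 libraries of body wall from live animals of 150 ± 20 g body weight, without viscera and heads. The age of the animals is not given. Fresh body wall (CON, 3 libraries) was compared with body wall cut into pieces and kept at 37 °C for 1 h (T_1h, 3 libraries) or 3 h (T_3h, 3 libraries), which lets the tissue soften by its own enzymes. All pieces were frozen before RNA extraction, and CON pieces had no time at 37 °C, so the effect of heat and that of time after cutting cannot be told apart. The labels call the libraries of a group biological replicates, numbered 1 to 3 in every group, and it is not stated whether a shared number means a shared animal.

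In vertebrates, ficolins are soluble lectins that bind sugars and acetyl groups on microbes through this domain and start complement through partner proteases, the MASPs. Tenascins are large glycoproteins of the extracellular matrix that end in the same domain, and angiopoietins are ligands of the Tie receptor tyrosine kinases. FIBCD1 (fibrinogen C domain-containing protein 1) is a membrane receptor for acetylated compounds in mammals. Fibrinogen-like protein A, or FREP-A, was first described in another sea cucumber, *Parastichopus parvimensis*, and many copies here carry that entry as their description. Invertebrate fibrinogen-related proteins (FREPs) are known as a diverse family of pattern recognition proteins, and these genes are counted here by the name of their best match, which does not show that they share the vertebrate role.

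By description, 53 members were copies of fibrinogen-like protein A, 37 were ficolins, 27 were tenascins, 23 were other fibrinogen-like proteins, 20 were FIBCD1-type genes, 12 were angiopoietins or angiopoietin-related proteins and 6 were angiopoietin receptors. Any gene with the name fibrinogen-like protein A was counted under it, also where another family name stood beside it, as in MSTRG.3214 and MSTRG.36408. Of the genes without that name, a further 7 carried names of more than 1 of these families. A mean FPKM of at least 1 over the 9 libraries was reached by 73 members, which were 31 copies of fibrinogen-like protein A, 13 ficolins, 8 other fibrinogen-like proteins, 7 tenascins, 6 FIBCD1-type genes, 4 genes of mixed names, 2 angiopoietin-type genes and both traced genes. FPKM above 0 in every library was found in 81 members. The table gives no read counts, so the depth behind a gene is unknown. Copies of 1 family can share reads that map to several places, and 26 members merge descriptions of more than 1 predicted protein, so the split of reads between near-identical copies is uncertain.

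The FPKM of all members summed to 837, 914 and 899 in CON_1 to CON_3, to 1427, 1328 and 1220 in T_1h_1 to T_1h_3, and to 1799, 1818 and 1086 in T_3h_1 to T_3h_3. Every heated library lay above every CON library. Most of that difference sat in a single gene, the tenascin-like gene MSTRG.39446, which held between 27.2% (CON_3) and 80.5% (T_3h_2) of the sum. Without it, the sums were 471, 574 and 655 in CON, 877, 634 and 647 in T_1h, and 832, 355 and 560 in T_3h, and the groups overlapped. The copies of fibrinogen-like protein A together reached 187.5, 144.5 and 291 FPKM in CON, 413.5, 156 and 294 FPKM in T_1h, and 357, 58.2 and 198 FPKM in T_3h. Their sum was lowest in the library numbered 2 of each group. The ficolins summed to 124.5, 139.6 and 125 FPKM in CON, 159.6, 168 and 164.5 FPKM in T_1h, and 203, 212 and 138.8 FPKM in T_3h, with every T_1h library above every CON library. A single ficolin, MSTRG.31986, held between 17.3% (CON_3) and 80.3% (T_3h_2) of this sum. The order of the sums need therefore not hold for the other ficolins.

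**Figure D1:**
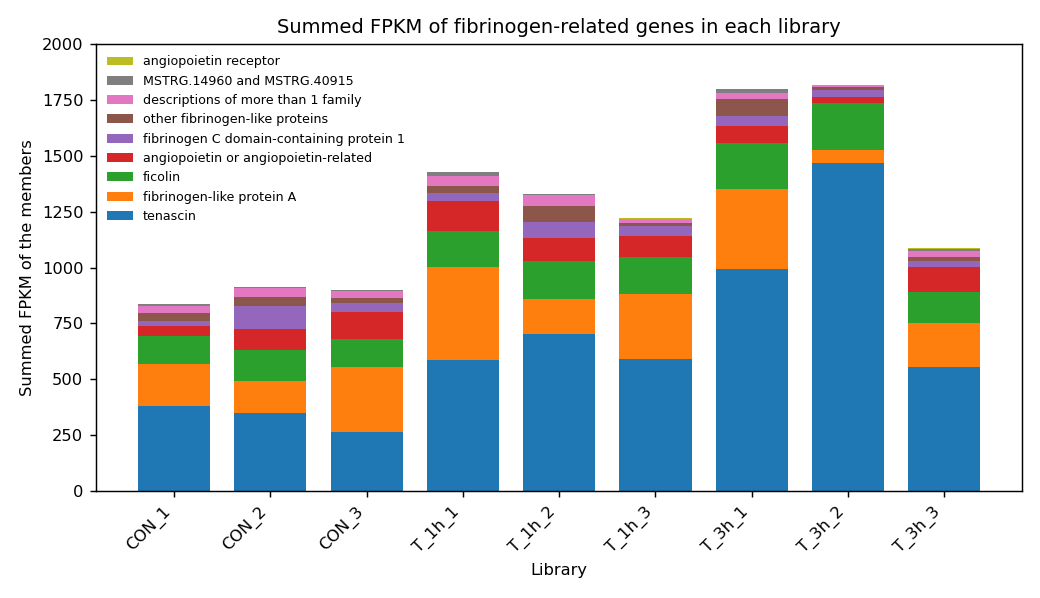
Stacked bars show the summed FPKM (vertical axis) of the 187 members in each of the 9 libraries (horizontal axis), with a colour for each family. The tenascin part is larger in every heated library than in every CON library, while the fibrinogen-like protein A part is smallest in T_3h_2, at 58.2 FPKM.

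The 3 comparisons were made with limma on log2(FPKM + 1), in 1 model of the 3 groups. The library T_1h_1 did not enter it, following the methods of the study, so T_1h fold changes rest on T_1h_2 and T_1h_3. The model tested 184 of the 185 members with a description, and the 2 traced genes were not tested, because their own fold changes had chosen them. A gene passed when its unadjusted p was no higher than 0.05 and its level at least doubled or halved on the FPKM + 1 scale (log2 fold change of 1 or more in size). At T_1h vs. CON 1 member was higher and 1 was lower (1.09% of members), against 0.871% of the 50973 genes tested (0.398% higher and 0.473% lower). At T_3h vs. CON 3 members were higher and 3 were lower (3.26%), against 4.14% of all genes (0.473% higher and 3.67% lower). At T_3h vs. T_1h no member was higher and 3 were lower (1.63%), against 0.728% of all genes (0.0824% higher and 0.645% lower). All of these members had a mean FPKM of at least 1. At that level 2.82%, 8.45% and 4.23% of the 71 described members passed in these comparisons, against 1.84%, 9.74% and 1.56% of all genes. The shares of passing members were near those of all genes in both comparisons with CON. Over all genes, lower calls outnumbered higher ones, with 1870 lower and 241 higher at T_3h vs. CON. This balance of calls was sensitive to how libraries were scaled. With median-ratio scaling 5 members were higher and 2 lower at T_3h vs. CON, against 572 higher and 858 lower genes, and with upper-quartile scaling the members split the same way, against 572 and 847 genes. At T_1h vs. CON either scaling left 1 member higher and none lower, and at T_3h vs. T_1h median-ratio scaling gave 1 higher and 2 lower. Over all genes, T_1h vs. CON then had more higher than lower calls, 298 and 111 with median-ratio and 357 and 93 with upper-quartile scaling.

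No member had a Benjamini-Hochberg adjusted p under 0.05 in limma, where the smallest adjusted p of a member was 1 at T_1h vs. CON, 0.626 at T_3h vs. CON and 1 at T_3h vs. T_1h. At an unadjusted p under 0.05, whatever the fold, limma counted 4, 8 and 5 members, and a Ballgown-type test passed 3, 2 and 1 members at the same thresholds. With the replicate number as a block, 4 members passed at T_1h vs. CON, 9 at T_3h vs. CON and 5 at T_3h vs. T_1h. The calls below are therefore calls at an unadjusted p. Where T_1h_2 or T_1h_3 is left out, T_1h holds 1 library, which is assumed to vary like the other groups. Among the 71 members of that level, the median log2 fold change was 0.07 at T_1h vs. CON and −0.20 at T_3h vs. CON, against −0.17 and −0.39 over the 20319 genes of that level. With median-ratio scaling of the libraries the member medians were 0.20 and 0.11, against −0.02 and −0.07 over all genes. The sign of the member median at T_3h vs. CON thus depends on the scaling, while its distance from the median of all genes was 0.18 as deposited and 0.17 scaled.

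The tenascin-like gene MSTRG.39446, an extracellular matrix glycoprotein by name and a partial match in its description, had the highest FPKM of all members in every library. It had 366, 340 and 244 FPKM in CON, 549, 694 and 573 FPKM in T_1h, and 967, 1463 and 526 FPKM in T_3h. All 6 heated libraries lay above all 3 CON libraries, and each heated library also lay above the CON library of its own number. Its log2 fold change was 1.53 (SE 0.43) at T_3h vs. CON, which passed (limma, unadjusted p = 0.00679, adjusted p = 0.686). At T_1h vs. CON it was 1.01 (SE 0.48, limma, unadjusted p = 0.0671, adjusted p = 1), which did not pass, and with the replicate block it was 1.09 (unadjusted p = 0.0193), which passed. Leaving out T_3h_2 or T_3h_3 also made the T_1h call pass, at unadjusted p = 0.0497 and 0.032 in limma. The T_3h call was lost in the Ballgown-type test, where the log2 fold change was 0.93. The difference between T_3h and T_1h was 0.52 (SE 0.48, unadjusted p = 0.308).

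The other tenascins were low. Together they summed to 14.8, 7.48 and 18.5 FPKM in CON, 39.3, 9.69 and 16.8 FPKM in T_1h, and 27.8, 4.11 and 28.1 FPKM in T_3h, so MSTRG.39446 held between 92.9% and 99.7% of the tenascin sum. In each group the library numbered 2 had the lowest sum. MSTRG.23330, described as tenascin, had 5.22, 10.6 and 6.18 FPKM in the number 1 libraries of CON, T_1h and T_3h, 1.49, 1.16 and 0.905 FPKM in the number 2 libraries and 1.03, 1.27 and 7.31 FPKM in the number 3 libraries. Its T_3h vs. T_1h difference was 1.13 (SE 0.74, limma, unadjusted p = 0.163) and passed only without T_3h_2, at 1.80 (unadjusted p = 0.0197). MSTRG.32823, which merges a tenascin with other predicted proteins, lay at 7.28, 7.27 and 9.80 FPKM in the number 3 libraries against 0.503 to 3.33 FPKM in the other 6. MSTRG.1165 went the other way, with 3.11, 13.7 and 8.93 FPKM in the number 1 libraries and at most 0.945 FPKM elsewhere. MSTRG.45199 reached 1.24, 5.82 and 2.05 FPKM in the number 1 libraries and was listed at 0 in all 3 number 3 libraries. MSTRG.14846 and MSTRG.32830 lay between 0.529 and 5.29 FPKM and between 0 and 2.40 FPKM. In 5 of the 7 tenascins of this level the libraries of 1 replicate number stood apart from the other 6.

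The traced tenascin-N gene MSTRG.40915 showed a similar layout, with 6.09, 14 and 18.3 FPKM in the number 1 libraries, 1.2, 0.285 and 0.362 FPKM in the number 2 libraries and 1.79, 0.121 and 5.81 FPKM in the number 3 libraries. All number 1 libraries were above the other 6. Within its number it was higher in T_3h than in CON in the number 1 and number 3 libraries and lower in the number 2 libraries. Its fitted log2 fold change, a description with no test, was −1.55 at T_1h, where T_1h_1 was left out, and 0.68 at T_3h.

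Among the 13 ficolins with a mean FPKM of at least 1, 1 was higher and 3 were lower at T_3h vs. CON (30.8%), against 9.74% of the 20319 genes of that level, and the median log2 fold change of the ficolins was −0.73 as deposited and −0.39 with median-ratio or upper-quartile scaling, which is 0.34 and 0.33 below that of all genes of the level. With either scaling MSTRG.821 also passed as higher and MSTRG.21483 no longer passed. The ficolin-1-like gene MSTRG.31986 had the highest mean FPKM of them, and the highest FPKM in every library except CON_3, where MSTRG.25264 was above it. It moved opposite to the 3 ficolins that fell. It had 57.8, 41.0 and 21.6 FPKM in CON, 83.4, 81.9 and 52.1 FPKM in T_1h, and 135, 170 and 51.6 FPKM in T_3h. The groups overlapped, since both heated libraries numbered 3 lay below CON_1, while within each number the heated libraries were above CON. Its log2 fold change at T_3h vs. CON was 1.49 (SE 0.56, limma, unadjusted p = 0.0268, adjusted p = 0.766). That call was lost without CON_2 (1.55, unadjusted p = 0.0502), without CON_3 (1.11, unadjusted p = 0.0947), without T_3h_1 (1.31, unadjusted p = 0.0801), without T_3h_2 (1.15, unadjusted p = 0.0910) and in the Ballgown-type test (0.59, unadjusted p = 0.150), the first 4 from limma. The fits without a library had no block. With the replicate block and all 8 libraries of the model the T_3h vs. CON call was kept, at 1.49 (SE 0.31, limma, unadjusted p = 0.00215). At T_1h vs. CON the log2 fold change was 0.80 (SE 0.62, unadjusted p = 0.233 in limma) and passed with the replicate block, at 1.04 (unadjusted p = 0.0251).

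The ficolin-2 gene MSTRG.31399 fell furthest. It had 8.38, 2.51 and 6.78 FPKM in CON, 3.55, 0.335 and 3.12 FPKM in T_1h, and 0.183, 0.0603 and 0.311 FPKM in T_3h. Every T_3h library was below every other library, and within each number the level was highest in CON and lowest in T_3h. The log2 fold change at T_3h vs. CON was −2.43 (SE 0.55, limma, unadjusted p = 0.00197, adjusted p = 0.626), and this call held in all 20 alternatives. At T_1h vs. CON it was −1.44 (SE 0.61, unadjusted p = 0.0458 in limma, adjusted p = 1), and this call was lost in 13 of the 20. Among them, leaving out T_1h_2 gave −0.62 (unadjusted p = 0.393), leaving out CON_1 gave −1.16 (unadjusted p = 0.124), leaving out CON_3 gave −1.29 (unadjusted p = 0.104), and leaving out T_3h_1, T_3h_2 or T_3h_3 left −1.44 with unadjusted p = 0.0637, 0.0609 and 0.0594. The T_3h vs. T_1h difference was −0.99 (SE 0.61, unadjusted p = 0.143), and it passed with the replicate block at −1.13 (unadjusted p = 0.0309) and without T_1h_2 at −1.80 (unadjusted p = 0.0322).

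MSTRG.21483, also described as ficolin-2, had 3.89, 9.85 and 6.97 FPKM in CON, 1.12, 8.16 and 5.41 FPKM in T_1h, and 1.81, 1.98 and 1.80 FPKM in T_3h. All T_3h libraries were below all CON libraries, whereas T_1h_1, outside the model, was the lowest library of all. Its log2 fold change was −1.39 at T_3h vs. CON (SE 0.40, limma, unadjusted p = 0.00797, adjusted p = 0.686) and −1.42 at T_3h vs. T_1h (SE 0.45, unadjusted p = 0.0126, adjusted p = 1). With median-ratio or upper-quartile scaling the T_3h vs. CON value was −0.97, just short of the fold threshold, and in the Ballgown-type test it was −1.18 (unadjusted p = 0.0709). With T_1h_1 in the model, T_3h vs. T_1h was −0.80 (unadjusted p = 0.177), and without T_1h_2 it was −1.16 (unadjusted p = 0.0971).

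The ficolin-2-like gene MSTRG.40865 had 18.6, 30.9 and 11.1 FPKM in CON, 20.3, 13.0 and 20.2 FPKM in T_1h, and 1.57, 1.65 and 12.6 FPKM in T_3h. T_3h_1 and T_3h_2 were far below the rest, but T_3h_3 lay above CON_3. Its log2 fold change was −2.11 at T_3h vs. CON (SE 0.70, limma, unadjusted p = 0.0152, adjusted p = 0.731) and −1.93 at T_3h vs. T_1h (SE 0.78, unadjusted p = 0.0369). The first call was lost without CON_2 (−1.76, unadjusted p = 0.0558), T_3h_1 (−1.71, unadjusted p = 0.0573) or T_3h_2 (−1.73, unadjusted p = 0.0552) and in the Ballgown-type test (−1.49, unadjusted p = 0.271). The second was lost in 8 of the 20 alternatives. These were the Ballgown-type test (−1.10, unadjusted p = 0.250), no trend (−1.93, unadjusted p = 0.0506), the replicate block (−1.72, unadjusted p = 0.0683) and the fits without CON_1 (−1.93, unadjusted p = 0.0505), T_1h_2 (−2.22, unadjusted p = 0.0666), T_1h_3 (−1.63, unadjusted p = 0.156), T_3h_1 (−1.52, unadjusted p = 0.108) or T_3h_2 (−1.54, unadjusted p = 0.104).

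MSTRG.20554, which merges a ficolin-2-like protein with a hypothetical protein, passed only at T_3h vs. T_1h. It had 9.40, 14.6 and 12.7 FPKM in CON, 5.10, 24.3 and 15.8 FPKM in T_1h, and 2.24, 6.15 and 13.0 FPKM in T_3h, so T_3h was below T_1h within every number. The log2 fold change was −1.59 (SE 0.61, limma, unadjusted p = 0.0304, adjusted p = 1). It was lost in 10 of the 20 alternatives, among them those with T_1h_1 in the model (−1.0, unadjusted p = 0.152), with median-ratio scaling (−1.30, unadjusted p = 0.0509), in the Ballgown-type test (−1.26, unadjusted p = 0.340) and without T_1h_2 (−1.29, unadjusted p = 0.156), T_1h_3 (−1.88, unadjusted p = 0.0513), T_3h_1 (−1.04, unadjusted p = 0.0896) or T_3h_2 (−1.61, unadjusted p = 0.0531). The T_3h vs. CON value of −0.92 (unadjusted p = 0.128) passed without T_3h_3, at −1.44 (unadjusted p = 0.0184).

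The ficolin-2-like gene MSTRG.821 had 9.98, 10.3 and 11.2 FPKM in CON, 15.9, 8.69 and 9.54 FPKM in T_1h, and 36.9, 14.5 and 11.4 FPKM in T_3h. Every T_3h library was above every CON library, by a small margin for T_3h_3. The log2 fold change at T_3h vs. CON was 0.75 (SE 0.46, limma, unadjusted p = 0.136), which did not pass, and it passed at 1.24 with median-ratio (unadjusted p = 0.0314) and with upper-quartile scaling (unadjusted p = 0.0300) and at 1.08 without T_3h_3 (unadjusted p = 0.0486). The other 7 ficolins with a mean FPKM of at least 1 did not pass in any of the 3 comparisons, and 4 of them stood high in the libraries of 1 replicate number. MSTRG.25264 was one of these, with 25.2, 19.7 and 11.7 FPKM in the number 3 libraries and between 0.431 and 4.77 FPKM in the other 6.

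**Figure D2:**
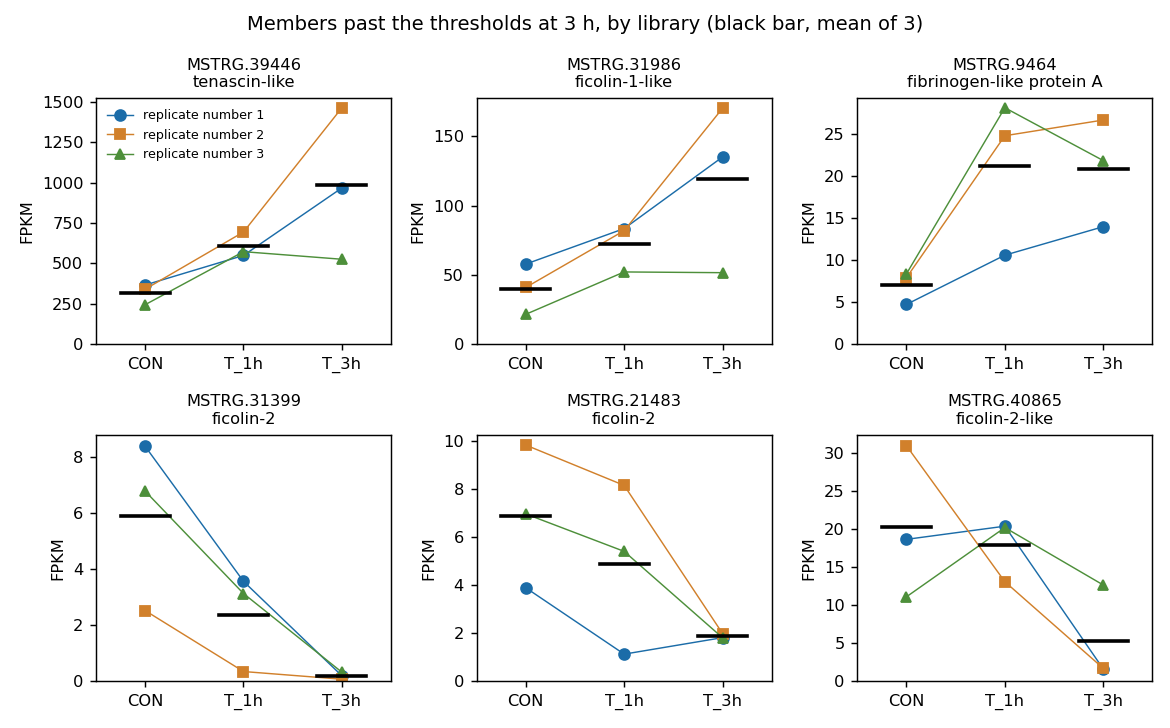
Each panel plots the FPKM (vertical axis, from 0) of 1 member past the thresholds at T_3h vs. CON against the time group, with a line for each replicate number and a black bar for the mean of 3 libraries. MSTRG.39446, MSTRG.31986 and MSTRG.9464 are higher in T_3h than in CON within every number, and MSTRG.31399 ends between 0.0603 and 0.311 FPKM in T_3h.

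Of the 31 copies of fibrinogen-like protein A with a mean FPKM of at least 1, MSTRG.9464 alone passed. It had 4.74, 7.92 and 8.38 FPKM in CON, 10.6, 24.8 and 28.2 FPKM in T_1h, and 14, 26.7 and 21.9 FPKM in T_3h. All 6 heated libraries were above all 3 CON libraries, and T_1h_1 was above CON_1 though outside the model. The log2 fold change was 1.81 at T_1h vs. CON (SE 0.43, limma, unadjusted p = 0.0027, adjusted p = 1) and 1.43 at T_3h vs. CON (SE 0.39, unadjusted p = 0.00538, adjusted p = 0.671). Both calls held in all 20 alternatives, scalings and left-out libraries included. T_3h vs. T_1h was −0.37 (SE 0.43, unadjusted p = 0.41). The study lists a fibrinogen-like protein A gene and a ficolin-2 gene from these same samples under other gene numbers. Whether they are MSTRG.9464 and MSTRG.31399 was not tested, so the direction of these genes is not taken as independent evidence.

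In limma, the fold changes of the other 30 copies spread around 0, with 14 above and 16 below it at T_1h vs. CON and 7 above and 23 below it at T_3h vs. CON. They lay between −1.32 (MSTRG.3220) and 1.13 (MSTRG.6757) at T_1h vs. CON, and between −1.37 (MSTRG.40904) and 0.66 (MSTRG.27182) at T_3h vs. CON. Without T_1h_1, the T_1h vs. CON values set T_1h_2 and T_1h_3 against CON libraries of all 3 numbers. Differences between replicate numbers therefore enter these values, their signs and their median. With the replicate block MSTRG.3220 was at 0.20 and MSTRG.6757 at 0.42 at T_1h vs. CON. Their standard errors reached 1.79 at T_1h and 1.60 at T_3h without the block, and a standard error above 1 is larger than a 2-fold change. With the replicate block the standard errors were at most 0.80 at T_1h and 0.68 at T_3h, both in MSTRG.4023. The median of the 31 copies was −0.01 at T_1h vs. CON and −0.21 at T_3h vs. CON as deposited, and with median-ratio scaling it was 0.11 and 0.10. Its sign depends on the scaling, while its distance from the median of all genes was 0.15 and 0.17 as deposited and 0.14 and 0.16 scaled. With the replicate block, 3 copies passed as lower at T_3h vs. CON, and none of them did so with the block, all 9 libraries and median-ratio scaling. These were MSTRG.6757 at −1.13 (unadjusted p = 0.0228), MSTRG.40904 at −1.37 (unadjusted p = 0.0214) and MSTRG.40910 at −1.25 (unadjusted p = 0.0117). At T_3h vs. T_1h, MSTRG.6757 passed with the block at −1.54 (unadjusted p = 0.0117) and MSTRG.6285 at −1.24 (unadjusted p = 0.0362). With the block, all 9 libraries and median-ratio scaling, MSTRG.2214 passed as higher at T_1h vs. CON, at 1.09 (limma, unadjusted p = 0.0102). MSTRG.27182 did so too, at 1.02 (limma, unadjusted p = 0.0304). In the Ballgown-type test at T_1h vs. CON, MSTRG.3220 passed as lower at −2.33 (unadjusted p = 0.00398). MSTRG.40904 passed there as higher, at 1.05 (unadjusted p = 0.049).

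**Figure D3:**
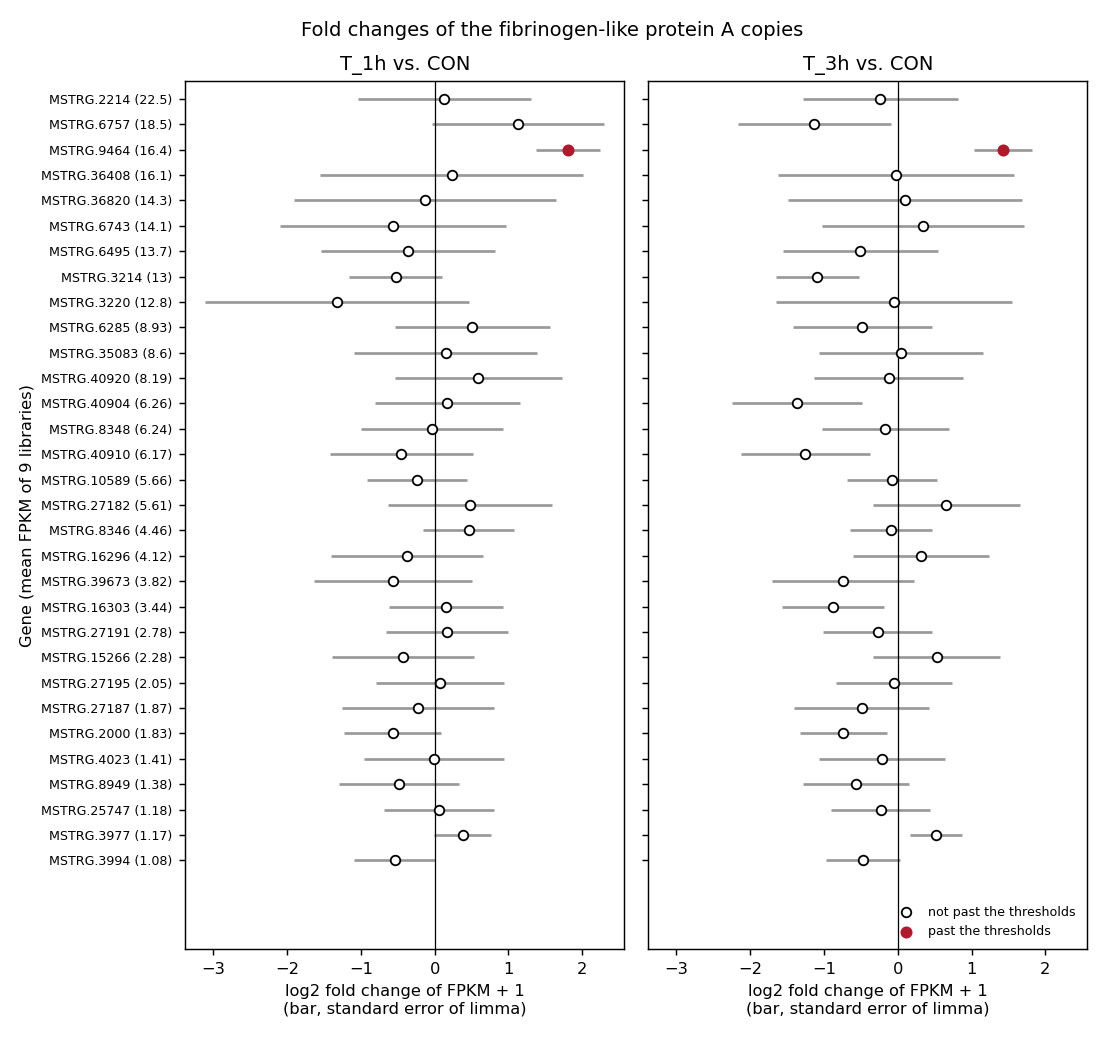
Points give the log2 fold change of FPKM + 1 (horizontal axis) of the 31 copies of fibrinogen-like protein A, sorted by mean FPKM (vertical axis), at T_1h vs. CON and T_3h vs. CON, with bars for the standard error of limma. The filled point, MSTRG.9464 at 1.81 and 1.43, is the only copy past the thresholds, and most other bars cross 0.

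The copies differed far more between replicate numbers than between times. For each gene the sum of squares of log2(FPKM + 1) over the 9 libraries was split into a part between the 3 replicate numbers and a part between the 3 times. The median share between numbers was 79.5% for the 31 copies and 72.9% for the 71 described members, against 52.4% for the 20334 genes of that level. The median share between times was 7.16% and 9.58%, against 16.4%. For the 13 ficolins the shares were 51.4% between numbers and 22.7% between times. These shares are descriptions of 9 libraries, and no test was made on them.

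The 3 libraries of 1 replicate number lay all above or all below the other 6 in 45 of the 71 members (63.4%), against 41.7% of all genes of that level, and in 23 of the 31 copies of fibrinogen-like protein A (74.2%). This was so in 5 of 13 ficolins, 5 of 7 tenascins, 5 of 8 other fibrinogen-like genes and 4 of 6 FIBCD1-type genes. The 3 libraries of 1 time stood apart in this way in 4 members (5.63%), against 7.99% of all genes. With median-ratio or upper-quartile scaling 47 members had a number apart, against 47.1% of all genes with each scaling. Without T_1h_1 the count was 49 and without T_3h_2 it was 53, against 45.7% and 54.4% of all genes. The mean of 1 number was at least 10 times that of another in 31 members (43.7%), against 16.3% of all genes. MSTRG.9464, MSTRG.39446, MSTRG.31399 and MSTRG.3977 were the 4 members that separated by time.

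**Figure D4:**
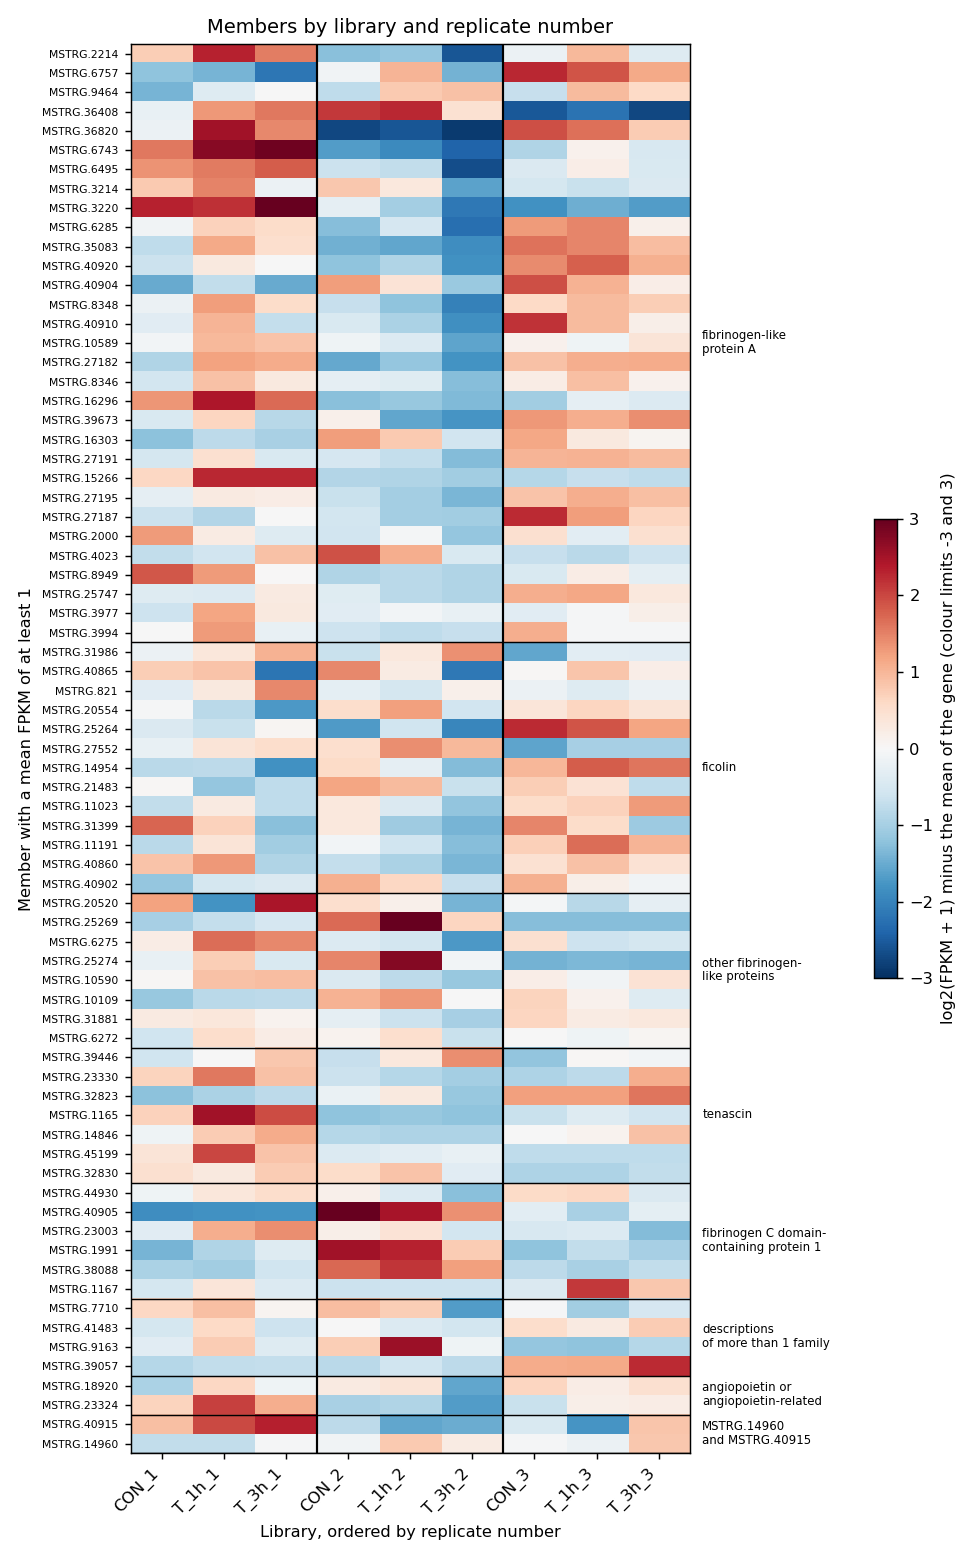
The heat map shows log2(FPKM + 1) minus the mean of each gene (colour, limits −3 and 3) for the 73 members with a mean FPKM of at least 1 (rows, by family) in the 9 libraries (columns, ordered by replicate number, black lines between numbers). Blocks of 3 columns share a colour in many rows, as in MSTRG.6743, high in number 1, and MSTRG.36408, low in number 3.

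Among the copies of fibrinogen-like protein A, the direction differed from copy to copy. The number 1 libraries were above the rest in 5 copies, the number 3 libraries in 7 and the number 2 libraries in none, while the number 2 libraries were below the rest in 15 copies, and the number 1 and number 3 libraries in 1 each. Over all 20334 genes, the number 2 libraries were below the rest in 8.54% and the number 3 libraries above it in 17.1%. The values of each copy below run CON, T_1h, T_3h within a replicate number.

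The first set holds the 5 copies that were highest in the number 1 libraries. MSTRG.6743 had 19.0, 43.5 and 49.2 FPKM in the number 1 libraries, 1.09, 0.778 and 0.257 FPKM in number 2 and 2.59, 6.37 and 3.82 FPKM in number 3. MSTRG.3220 had 22.1, 20.2 and 67.2 FPKM in number 1, 2.84, 1.29 and 0.0565 FPKM in number 2 and 0.319, 0.669 and 0.458 FPKM in number 3. MSTRG.16296 had 7.04, 16.1 and 9.35 FPKM in number 1, 0.330, 0.451 and 0.267 FPKM in number 2 and 0.542, 1.65 and 1.39 FPKM in number 3. In each of the 3 the lowest number 1 library was several times the highest library of the other numbers, and only within number 1 and number 3 were both heated libraries of MSTRG.6743 and MSTRG.16296 above CON. MSTRG.15266 had 2.14, 8.77 and 8.78 FPKM in number 1 and at most 0.268 FPKM elsewhere. MSTRG.6495 had 24.7, 28.9 and 34.7 FPKM in number 1, 5.43, 5.06 and 0.612 FPKM in number 2 and 6.47, 10.6 and 6.40 FPKM in number 3. Between the numbers the means of these 5 copies differed by 7.95-fold (MSTRG.6495) to 93.3-fold (MSTRG.15266).

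The second set holds the 7 copies that were highest in the number 3 libraries. MSTRG.6757 had 4.06, 3.43 and 1.62 FPKM in number 1, 9.92, 22.6 and 3.38 FPKM in number 2 and 54.6, 42.1 and 24.7 FPKM in number 3. MSTRG.40920 had 3.32, 7.20 and 5.64 FPKM in number 1, 1.92, 2.61 and 0.894 FPKM in number 2 and 16.9, 22.2 and 13.1 FPKM in number 3. MSTRG.39673 had 1.68, 4.76 and 1.05 FPKM in number 1, 3.10, 0.248 and 0.0808 FPKM in number 2 and 8.03, 6.85 and 8.61 FPKM in number 3. In MSTRG.6757 the T_3h library was the lowest within every number, and in MSTRG.40920 the T_1h library was the highest within every number. MSTRG.27191 had 5.51, 5.66 and 5.23 FPKM in number 3, against 0.301 to 3.49 FPKM elsewhere. MSTRG.27195 had 3.70, 4.58 and 3.87 FPKM in number 3, 1.15, 2.15 and 2.05 FPKM in number 1, and 0.631, 0.278 and 0 FPKM in number 2. Both were nearly level over the times within number 3. MSTRG.27187 had 8.78, 3.90 and 2.23 FPKM in number 3 and at most 1.06 FPKM elsewhere, and MSTRG.25747 had 3.12, 3.31 and 1.37 FPKM in number 3 and at most 1.32 FPKM elsewhere.

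The third set holds the 9 copies that were lowest in the number 2 libraries, with neither of the other numbers apart from the rest. MSTRG.2214, the copy of highest mean, had 24.1, 73.1 and 42.0 FPKM in number 1, 5.23, 5.64 and 1.52 FPKM in number 2 and 12.2, 28.2 and 10.5 FPKM in number 3. Its T_1h library was the highest within every number, with T_1h_1 more than 2-fold above any CON library. MSTRG.36820 had 5.57, 41.9 and 19.2 FPKM in number 1, 0.128, 0.254 and 0.0221 FPKM in number 2 and 27.7, 22.6 and 11.6 FPKM in number 3, a difference of 165-fold between the means of numbers 1 and 2. MSTRG.35083 had 2.96, 13.7 and 8.43 FPKM in number 1, 1.45, 1.27 and 0.827 FPKM in number 2 and 19.6, 17.5 and 11.6 FPKM in number 3. MSTRG.6285 had 6.17, 11.4 and 10.2 FPKM in number 1, 2.15, 4.42 and 0.609 FPKM in number 2 and 17.8, 20.1 and 7.59 FPKM in number 3. In both the order of the numbers was 3, 1, 2 by mean, and in MSTRG.6285 the T_1h library was the highest within every number.

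Of that set, MSTRG.8348 had 4.18, 12.9 and 7.60 FPKM in number 1, 2.64, 1.53 and 0.422 FPKM in number 2 and 7.90, 10.3 and 8.72 FPKM in number 3. MSTRG.27182 had 1.62, 10.2 and 9.55 FPKM in number 1, 0.699, 1.19 and 0.417 FPKM in number 2 and 7.92, 9.37 and 9.49 FPKM in number 3. Both heated libraries were above CON in numbers 1 and 3 for each of these copies. MSTRG.10589 had 4.63, 10.7 and 9.82 FPKM in number 1, 4.43, 3.48 and 1.01 FPKM in number 2 and 5.54, 4.47 and 6.86 FPKM in number 3, a narrow gap. MSTRG.8949 had 5.86, 3.52 and 0.896 FPKM in number 1, 0.366, 1.17 and 0.522 FPKM in number 3 and at most 0.0615 FPKM in number 2. MSTRG.3994, just above the mean of 1 at 1.08, had 0.808, 3.46 and 0.563 FPKM in number 1, 2.86, 0.796 and 0.783 FPKM in number 3 and at most 0.193 FPKM in number 2. MSTRG.39623, just under that mean at 0.776, was not described.

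MSTRG.36408 was the copy lowest in number 3, with 0.522, 0.911 and 0.336 FPKM there, against 6.65, 20.8 and 25.7 FPKM in number 1 and 37.8, 41.3 and 11.1 FPKM in number 2. This gene merges a ryncolin-1-like, a FIBCD1 and a fibrinogen-like protein A description. MSTRG.16303 was the copy lowest in number 1, with 0.570, 1.16 and 0.876 FPKM there, against 7.79, 5.34 and 1.5 FPKM in number 2 and 7.30, 3.55 and 2.90 FPKM in number 3. Its T_3h vs. CON value in limma was −0.88 and passed without CON_1, at −1.70 (unadjusted p = 0.0068). Within numbers 2 and 3 its level was highest in CON and lowest in T_3h.

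In the other 8 copies no number stood apart. One was MSTRG.9464, described above. MSTRG.3214, a merged gene of 87 transcripts and 10 descriptions, had 19.1, 31.7 and 9.32 FPKM in number 1, 19.5, 13.7 and 2.87 FPKM in number 2 and 7.18, 6.36 and 7.69 FPKM in number 3. MSTRG.40904 had 0.836, 2.11 and 0.823 FPKM in number 1, 11.5, 5.97 and 1.42 FPKM in number 2 and 19.0, 9.73 and 4.97 FPKM in number 3. MSTRG.40910 had 3.05, 9.52 and 2.13 FPKM in number 1, 2.76, 1.67 and 0.449 FPKM in number 2 and 22.1, 9.04 and 4.78 FPKM in number 3. In MSTRG.40904 and MSTRG.40910 the T_3h library was the lowest within every number, and T_3h vs. CON without CON_1 was −2.41 for MSTRG.40904 (limma, unadjusted p = 0.00448), while for MSTRG.3214 it was −1.53 without CON_3 (unadjusted p = 0.0278).

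MSTRG.8346 had 2.40, 8.17 and 5.07 FPKM in number 1, 3.13, 2.83 and 1.06 FPKM in number 2 and 4.82, 8.26 and 4.38 FPKM in number 3. MSTRG.2000 had 5.10, 2.03 and 0.950 FPKM in number 1, 0.702, 1.44 and 0.127 FPKM in number 2 and 2.52, 1.04 and 2.54 FPKM in number 3. MSTRG.4023 had 6.04, 2.97 and 0.369 FPKM in number 2, 0.122, 0.267 and 2.47 FPKM in number 1 and at most 0.230 FPKM in number 3. These 3 copies showed no shared order of the times. MSTRG.3977 had 0.318, 0.599 and 0.598 FPKM in CON, 3.60, 0.926 and 0.985 FPKM in T_1h, and 1.47, 0.733 and 1.3 FPKM in T_3h. All its heated libraries were above all CON libraries, but the log2 fold changes were 0.38 (SE 0.39, limma, unadjusted p = 0.349) at T_1h vs. CON and 0.52 at T_3h vs. CON, and neither passed.

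Within a replicate number each heated library was set against the CON library of that number, as a description with 1 library on each side. In number 1, 25 of the 31 copies of fibrinogen-like protein A were higher in T_1h_1 than in CON_1 (80.6%) and 23 were higher in T_3h_1 (74.2%), against 57.8% and 43.4% of all genes. In number 3, 18 copies were higher in T_1h_3 (58.1%) and 15 in T_3h_3 (48.4%), against 21.5% and 22.7% of all genes. In number 2, 12 were higher in T_1h_2 (38.7%) and 2 in T_3h_2 (6.45%), against 29.8% and 13.1% of all genes. As deposited, the copies were thus mostly higher in heated number 1 libraries and mostly lower in T_3h_2. With median-ratio scaling 24 copies were higher in T_1h_3 (77.4%) and 20 in T_3h_3 (64.5%), against 45.9% and 47.3% of all genes, so heated number 3 libraries were mostly higher too. T_3h_2 then had 6 copies higher (19.4%), against 40.9% of all genes, and T_1h_2 had 15 (48.4%), against 44.2%. T_3h_2 reached an FPKM of 1 in the fewest genes, 12877, while the others had 17380 to 24915, and it had 31 members at that level while the others had 53 to 68. Its part in the low values of the copies was not tested.

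**Figure D5:**
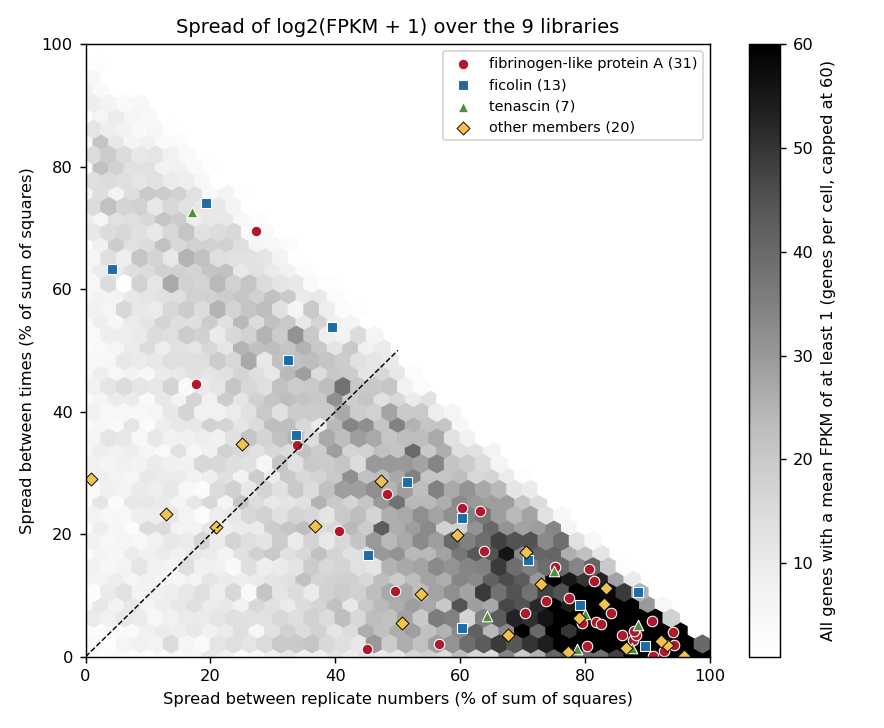
Each coloured point is 1 of the 71 described members with a mean FPKM of at least 1, placed by the percentage of its sum of squares between replicate numbers (horizontal axis) and between times (vertical axis), over grey cells that count all 20334 genes of that level. Most fibrinogen-like protein A points lie at the lower right, with a median of 79.5% between numbers, and MSTRG.9464, MSTRG.39446 and MSTRG.31399 lie above the dashed line of equal shares.

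The FIBCD1-type genes did not pass in any comparison. MSTRG.44930, the most abundant of the 6 with a mean FPKM of at least 1, had 15.5, 19.2 and 26.1 FPKM in CON, 22.0, 12.7 and 26.7 FPKM in T_1h, and 25.3, 6.61 and 12.5 FPKM in T_3h, and the groups overlapped. MSTRG.40905 had 48.6, 28.3 and 12.6 FPKM in the number 2 libraries of CON, T_1h and T_3h, 3.19, 1.67 and 3.31 FPKM in number 3 and 0.442, 0.484 and 0.511 FPKM in number 1. Its number means differed by 62.3-fold, and MSTRG.1991 and MSTRG.38088 were likewise highest in number 2, at 4.08 to 16.2 and 4.90 to 10.2 FPKM there and at most 1.3 and 0.658 FPKM elsewhere. In these 3 genes number 2 was the high one, whereas in none of the 31 copies of fibrinogen-like protein A did all number 2 libraries lie above the rest. MSTRG.1167 reached 5.82 FPKM in T_1h_3 and was at most 1.73 FPKM elsewhere. MSTRG.23003 had 2.71, 4.32 and 2.36 FPKM in CON, 9.0, 5.19 and 2.53 FPKM in T_1h, and 11.3, 2.19 and 0.891 FPKM in T_3h. The traced FIBCD1-like gene MSTRG.14960 was low, at 0.217, 0.871 and 0.971 FPKM in CON, 0.207, 2.5 and 0.790 FPKM in T_1h, and 0.977, 1.42 and 2.53 FPKM in T_3h. T_3h was above CON within every number, and its fitted log2 fold changes, given with no test, were 0.60 at T_1h and 0.64 at T_3h.

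The angiopoietin-2-like gene MSTRG.18920 had the highest mean FPKM after MSTRG.39446, at 82.5. It had 38.1, 90.4 and 117 FPKM in CON, 114, 97.3 and 87.8 FPKM in T_1h, and 67.5, 24.7 and 105 FPKM in T_3h. The T_1h libraries lay within the range of CON, and the fold changes of 0.32 and −0.39 in limma did not pass (unadjusted p = 0.655 and 0.533). MSTRG.23324, an angiopoietin-4-like gene, had 7.05, 20.0 and 9.77 FPKM in number 1, 1.57, 1.71 and 0.589 FPKM in number 2 and 2.21, 4.69 and 4.89 FPKM in number 3. The 6 genes described as angiopoietin receptors, the Tie-type receptors of these ligands in vertebrates, summed to 1.005 to 2.06 FPKM in CON, 0.372 to 1.16 FPKM in T_1h, and 0.656 to 0.974 FPKM in T_3h. Each of them was under a mean FPKM of 1, and none passed.

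Of the other fibrinogen-like genes, MSTRG.20520 had 23.6, 14.1 and 9.25 FPKM in CON, 2.06, 10.9 and 4.94 FPKM in T_1h, and 56.6, 3.03 and 7.86 FPKM in T_3h. T_3h_1 was the highest library and T_1h_1, of the same number, the lowest. MSTRG.25269, described as fibrinogen-like protein 1, had 6.95, 30.8 and 2.77 FPKM in number 2, 0.228, 0.473 and 0.709 FPKM in number 1 and was listed at 0 in all number 3 libraries. Its T_1h vs. CON value in limma was 1.40 (SE 1.44, unadjusted p = 0.359), and without T_1h_3 it was 3.90 (unadjusted p = 0.0145), which left T_1h_2 alone for the group. MSTRG.25274, numbered 5 genes later, had a similar layout, with 6.60, 17.5 and 1.60 FPKM in number 2, 1.35, 3.59 and 0.985 FPKM in number 1 and at most 0.0740 FPKM in number 3. MSTRG.6275 had 4.10, 13.1 and 10.9 FPKM in number 1, 2.31, 1.97 and 0.334 FPKM in number 2 and 5.10, 1.86 and 2.04 FPKM in number 3. The other 4 genes of this kind with a mean FPKM of at least 1 lay between 0.114 and 5.14 FPKM.

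The genes of mixed names were led by MSTRG.7710, which carries angiopoietin, ficolin and tenascin descriptions. It had 30.1, 37.4 and 18.5 FPKM in CON, 36.8, 32.5 and 8.71 FPKM in T_1h, and 20.2, 5.28 and 13.2 FPKM in T_3h. Within each number T_3h was below CON, and the log2 fold change of −1.21 (SE 0.62, limma, unadjusted p = 0.0849) did not pass, except without T_3h_1, at −1.60 (unadjusted p = 0.0466). MSTRG.41483 stayed between 1.64 and 5.85 FPKM in all libraries, and MSTRG.39057 had 3.25, 3.28 and 8.28 FPKM in number 3 and at most 0.283 FPKM elsewhere. MSTRG.9163 had 1.01, 3.22 and 0.124 FPKM in CON, 3.27, 14 and 0.0844 FPKM in T_1h, and 0.936, 1.31 and 0.390 FPKM in T_3h, and it was lowest in number 3. Without T_1h_3 its T_1h vs. CON value of 0.93 (unadjusted p = 0.391) became 2.82 (unadjusted p = 0.00829) in limma, with T_1h_2 alone for the group.

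The 114 members with a mean FPKM under 1 ranged from 0.00329 to 0.951, with a median of 0.1. They were 24 ficolins, 22 copies of fibrinogen-like protein A, 20 tenascins, 15 other fibrinogen-like genes, 14 FIBCD1-type genes, 10 angiopoietin-type genes, 6 receptors and 3 of mixed names. None passed in any comparison of the main model as deposited, and 16 had FPKM above 0 in all 9 libraries. Over all 185 described members, 32 (17.3%) were at 0 in the 3 libraries of 1 number and above 0 in the 3 of another, against 13.3% of the 51453 genes detected in 2 or more libraries. At a mean FPKM of at least 1 this held for 2 of 71 members (2.82%), MSTRG.25269 and MSTRG.45199, against 4.96% of all genes of that level. At these low levels a listed 0 does not show that the gene was silent.

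Gene numbers of the StringTie assembly were used as a rough guide to neighbours, since no coordinates were used here. Of the 139 members with such a number, 96 fell in 31 runs in which neighbouring members were at most 20 numbers apart, and 10 runs held 4 or more members. The longest run held 9 members between MSTRG.40902 and MSTRG.40920, of which 6 had a mean FPKM of at least 1. Members of this run differed in layout. MSTRG.40905 was highest in number 2, MSTRG.40920 was highest in number 3 and MSTRG.40915, the traced tenascin-N gene, was highest in number 1. The run from MSTRG.27182 to MSTRG.27195 held 6 members, of which the 4 copies of fibrinogen-like protein A with a mean FPKM of at least 1 were highest in number 3 or lowest in number 2.

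Partner genes of these families were counted from words of the description. Of 9 genes described as complement component C3, the central complement protein, MSTRG.13902 and MSTRG.13921 were higher at T_1h vs. CON and at T_3h vs. CON, against 0.398% and 0.473% of all genes, and none was lower. MSTRG.13921 had 71.0, 134 and 244 FPKM in CON, 189, 320 and 356 FPKM in T_1h, and 417, 235 and 408 FPKM in T_3h, and its log2 fold changes were 1.34 (SE 0.55, limma, unadjusted p = 0.0386) and 1.36 (SE 0.49, unadjusted p = 0.0229). C3 is also a gene the study listed from these samples. Of 6 factor B genes and 1 MASP gene none passed in limma. By its own test, the study lists factor B, factor B-2 and a MASP 1-like gene from these samples as upregulated. It reports a rise of that MASP gene by quantitative PCR as well. The MASP gene found here was at −0.44 at T_1h vs. CON and −0.51 at T_3h vs. CON. Whether it is the gene of the study was not tested. The median log2 fold change of the factor B genes was 1.37 at T_1h vs. CON and 1.04 at T_3h vs. CON, against −0.06 and −0.17 over all genes. Of 41 tested genes with the word integrin, which include cell surface receptors for tenascins in vertebrates but also disintegrins and integrin-linked kinase, none passed at T_1h vs. CON and 8 were lower at T_3h vs. CON, against 3.67% of all genes. Of the 8, 4 are integrin subunits by name (MSTRG.10404, MSTRG.23021, MSTRG.29715 and MSTRG.31536), and the others are 2 metalloproteinases with a disintegrin domain, an integrin-linked kinase and a calcium and integrin-binding protein. From these samples the study lists an integrin beta-like gene as higher and an integrin alpha-4 gene as lower, by its own test.

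The tissue was checked against markers chosen by description. Connective tissue genes (collagens and fibrillin) were detected in 44 of 47 cases and summed to between 13610 and 24450 FPKM in CON, 15140 and 25250 FPKM in T_1h, and 14570 and 32650 FPKM in T_3h. All 26 muscle genes were detected, with sums of 75.4 to 130 FPKM in CON, 80.4 to 227 FPKM in T_1h, and 87.8 to 197 FPKM in T_3h. Gut genes, 29 of 29 detected, summed to 70.7 to 107 FPKM in CON, 50.4 to 75.3 FPKM in T_1h, and 37.6 to 63.7 FPKM in T_3h, and nerve genes, 29 of 30 detected, to 11.65 to 29.8 FPKM in CON, 18.4 to 25.2 FPKM in T_1h, and 8.59 to 20.5 FPKM in T_3h. For phagocyte-type coelomocytes, the free immune cells of the body cavity, the words were integrin beta and macrophage mannose receptor. Such names do not show that a gene is particular to these cells. Of these genes, 15 of 18 were detected. They summed to 30.2 to 206 FPKM in CON, 35.0 to 107 FPKM in T_1h, and 22.6 to 78.4 FPKM in T_3h. The part of these cells in the levels of ficolins and fibrinogen-like protein A was not tested, and in whole body wall fewer cells of a type and less RNA per cell cannot be told apart.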

How the data were processed

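RNA from 9 AJBW libraries was sequenced as paired ends on an Illumina instrument. The authors removed adaptors, primers and bases of quality under 20, aligned reads to the *A. japonicus* genome with HISAT, assembled and merged transcripts with StringTie and estimated expression with StringTie and Ballgown. The submitters' processing notes name HISAT2 2.0, StringTie 1.3.0, Bowtie 0.12.2 and a mouse build, whose role is not given. The authors deposited FPKM values for 53665 genes, with descriptions. FPKM is already scaled to transcript length and mapped reads, so reads per gene are unknown and precision rests on 3 libraries per group, or 2 for T_1h where T_1h_1 was left out.

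Values were transformed as log2(FPKM + 1), so fold changes of low genes are understated. They were fitted with limma 3.58.1 (R 4.3.3), with 1 model of the 3 groups, 8 libraries and a trend, over the 50973 genes detected (FPKM above 0) in 2 or more. P-values are two-sided and adjusted over all genes. The smallest p of an exact permutation test of 3 against 3 libraries is 0.1, and p-values here therefore depend on the limma model. Groups and replicate numbers come from the library labels. Python 3.11.15 with matplotlib 3.10.9, pandas 2.3.3 and numpy 2.4.6 made tables and figures. The procedure was tested on simulated data.

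Deviations from the group means were shared by libraries of the same number (correlations 0.593 to 0.721 over 9 pairs and 51453 genes). The numbers were therefore taken as pairing the libraries, and the replicate number was fitted as a block beside the model. Over 18 pairs of different numbers the correlations were −0.438 to −0.116. The deviations within a group add up to 0, so positive same-number values make these negative on average, and they add no separate evidence. Other alternatives were a pseudocount of 0.1, a mean FPKM of at least 1, no filter, all 9 libraries, median-ratio and upper-quartile scaling, a Ballgown-type F-test, a fit of 2 groups, no trend, the block with all 9 libraries, also with median-ratio scaling, and leaving out each of 8 libraries, 20 in all. Scalings and left-out libraries for the replicate number pattern were chosen after seeing the data.

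Members, families, partner and marker lists were chosen with earlier results of these data known. Genes were named by a rule: every copy of fibrinogen-like protein A with a mean FPKM of at least 1, both traced genes, the 3 genes of highest mean in each other family, and every other member of that level past the thresholds. A few further members and partner genes were named after their values were seen. None of the gene identifiers matched the RefSeq table (0 matches), so no sequence or position is given.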

Additional observations from a re-analysis of the deposited data

Results flagged for a closer look

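T_1h_1 was left out of the model of the 3 groups, and 8 of the members with a mean FPKM of at least 1 had in it the highest level of all 9 libraries and at least 2 times the highest CON library. These were MSTRG.2214 (73.1 FPKM, against 24.1 FPKM in CON_1), the angiopoietin-4-like gene MSTRG.23324 (20.0 FPKM, against 7.05 FPKM in CON_1), MSTRG.16296 (16.1 FPKM, against 7.04 FPKM in CON_1), the fibrinogen-like gene MSTRG.6275 (13.1 FPKM, against 5.10 FPKM in CON_3), the tenascins MSTRG.23330 (10.6 FPKM, against 5.22 FPKM in CON_1), MSTRG.1165 (13.7 FPKM, against 3.11 FPKM in CON_1) and MSTRG.45199 (5.82 FPKM, against 1.24 FPKM in CON_1), and MSTRG.3977 (3.60 FPKM, against 0.599 FPKM in CON_2). In MSTRG.2214 T_1h_2 and T_1h_3 were at 5.64 and 28.2 FPKM, so the T_1h libraries alone spanned more than 10-fold. MSTRG.21483, in contrast, was at 1.12 FPKM in T_1h_1. The same rule was not counted over all genes, so these 8 show no excess of members. Of all genes of that level, 57.8% were higher in T_1h_1 than in CON_1. For T_1h_2 over CON_2 and T_1h_3 over CON_3 the shares were 29.8% and 21.5%. The 71 described members had shares of 81.7%, 45.1% and 52.1%. Whether the high values in T_1h_1 are a trait of the whole library was not tested.

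The ficolin-2-type genes MSTRG.40865, MSTRG.20554 and MSTRG.21483 differed between the heated times, by log2 fold changes of −1.93, −1.59 and −1.42 at T_3h vs. T_1h in limma (unadjusted p = 0.0369, 0.0304 and 0.0126, adjusted p = 1 each). This comparison tests the difference between both effects directly, since both are set against the same CON libraries. Without T_1h_2 the values were −2.22, −1.29 and −1.16 and none passed, but T_1h_3 then stands alone for T_1h, with a spread taken from the other groups.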

How the results depend on the processing

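No result changed its direction while past the thresholds. The calls of MSTRG.9464 at both times and of MSTRG.31399 at T_3h vs. CON were kept in all 20 alternatives. At T_1h vs. CON, where 2 members passed, 4 passed with a pseudocount of 0.1, 1 with all 9 libraries, with median-ratio or with upper-quartile scaling, 4 with the replicate block, 5 with the block, all 9 libraries and median-ratio scaling, and 1 to 5 when single libraries were left out. The lowest count came without CON_1, CON_3 or T_3h_1 and the highest without T_1h_3, with T_1h_2 alone for T_1h. At T_3h vs. CON, where 6 passed, the Ballgown-type test passed 2, and leaving out single libraries gave 4 to 10, with 10 without CON_1 or T_3h_3. At T_3h vs. T_1h, where 3 passed, the Ballgown-type test passed 1, the replicate block 5, the block with all 9 libraries 9, the same with median-ratio scaling 5, and leaving out single libraries 1 (without T_3h_1) to 7 (without T_3h_3). The cause of these shifts was not tested. Counts over all genes are given above for median-ratio and upper-quartile scaling only, so the other counts show no excess of members. Apart from the calls given with it above, the replicate block changed no other call of a named member. With the block all 6 calls at T_3h vs. CON were kept, at unadjusted p (limma) from 0.000286 (MSTRG.31399) to 0.0177 (MSTRG.40865). Over the named members, comparisons and alternatives, 2805 values kept direction and call, 52 gained a call, 49 lost one and 148 uncalled fold changes moved by more than their standard error. The count of members with 1 replicate number apart was 45 and ran from 47 to 58 in the 5 alternatives chosen after seeing the data, with 58 from CON and T_1h alone, against 66.2% of all genes. Depth per gene is unknown, so the counting error of values near 0 FPKM cannot be estimated.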
